A study of Mus musculus with 21 samples.

Results

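The 10 genes described here, Axin2, Nkd1, Rnf43, Znrf3, Sp5, Tcf7, Lef1, Cdx1, Cdx2 and Tnfrsf19, are known transcriptional targets of Wnt and β-catenin, and were taken by symbol from a table of 39396 mouse genes. RNA sequencing read counts were available for 21 libraries, 3 in each of 7 groups formed by 2 mouse embryonic stem cell (mESC) lines, D3 and A2, and 4 stages of pluripotency. Naive mESCs of D3 and A2 had been kept for 4 days without 2i in serum medium with 1000 U/mL leukaemia inhibitory factor (LIF). EPL cells (early primitive ectoderm-like cells) of D3 and A2 had spent 4 days without 2i in serum medium with 330 U/mL LIF and 400 µM L-proline. EpiSCs (epiblast stem cells) came from A2 only: A2 mESCs had been implanted into a pseudopregnant mouse, recovered after implantation and grown with activin A and bFGF in serum-free medium. Ground state mESCs of both lines, the starting cells for the naive and EPL groups, were held in serum medium with 1000 U/mL LIF and 2i. As commonly used, 2i is a MEK inhibitor combined with a GSK3 inhibitor, so the effects of losing either cannot be told apart here. EpiSCs differ from the other stages in medium and history together, and from ground state cells in 2i as well. The labels do not say whether the 3 libraries of a group came from separate cultures, and the p-values measure the spread between those libraries.

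In the Wnt pathway, a complex built on Axin and APC lets GSK3 mark β-catenin for destruction. When a Wnt ligand binds its Frizzled and LRP receptors, or when GSK3 is inhibited, β-catenin accumulates, enters the nucleus and joins TCF/LEF proteins on DNA. In mESCs the TCF family member Tcf7l1 acts mainly as a repressor, and its release by β-catenin is known to sustain self-renewal. Of the 10 genes, Axin2, Nkd1, Rnf43 and Znrf3 encode feedback inhibitors of the pathway, Sp5, Tcf7, Lef1, Cdx1 and Cdx2 encode transcription factors, and Tnfrsf19 (also called Troy) encodes a receptor of the TNF receptor superfamily.

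The promoters are shown because TCF/LEF proteins bind DNA through a short known motif. RefSeq (GRCm38.p6) sequences from 250 bases before to 50 after a transcription start were available for 14 promoters of 8 of the genes. Both strands were searched for 4 heptamers, namely CTTTGAA, its variant CTTTGAT, the related CTTTGTA, and finally CTTTGTT, written below in capitals in the direction of the gene, where a match on the other strand reads as its reverse complement. None of the matches printed overlap. At least 1 match was held by 16.9% of all 32851 promoters of this length, and 1.94% held 2 or more. Sp5 has 2 matches, whose first bases lie at -222 and -104 from the transcription start:
Sp5, chr2:70474673-70474972, forward strand: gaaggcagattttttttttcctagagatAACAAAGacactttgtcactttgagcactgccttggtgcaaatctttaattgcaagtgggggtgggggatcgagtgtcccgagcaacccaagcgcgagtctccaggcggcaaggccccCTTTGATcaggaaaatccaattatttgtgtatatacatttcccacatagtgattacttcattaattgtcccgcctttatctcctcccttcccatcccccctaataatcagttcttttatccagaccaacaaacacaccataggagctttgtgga
The promoter of Axin2 holds no match in this window:
Axin2, chr11:108920099-108920398, forward strand: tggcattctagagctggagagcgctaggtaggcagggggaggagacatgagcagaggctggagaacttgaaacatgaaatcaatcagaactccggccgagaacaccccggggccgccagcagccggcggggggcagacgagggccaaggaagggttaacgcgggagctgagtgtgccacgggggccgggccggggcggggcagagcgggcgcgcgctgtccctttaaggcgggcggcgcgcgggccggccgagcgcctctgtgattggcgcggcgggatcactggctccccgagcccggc
Of 4 Lef1 start sites in RefSeq, 1 inside the gene has a match, at -147:
Lef1, chr3:131156044-131156343, forward strand: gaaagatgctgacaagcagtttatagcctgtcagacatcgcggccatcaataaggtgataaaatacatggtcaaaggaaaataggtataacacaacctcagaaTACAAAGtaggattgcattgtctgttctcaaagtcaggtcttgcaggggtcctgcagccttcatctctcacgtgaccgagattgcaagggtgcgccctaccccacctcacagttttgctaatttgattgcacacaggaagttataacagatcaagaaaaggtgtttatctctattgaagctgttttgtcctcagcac
A single match, at -202, also precedes 1 of the 2 Tnfrsf19 start sites. The listed promoters of Cdx2, Nkd1, Rnf43 and Tcf7 hold none, as do the remaining Lef1 and Tnfrsf19 start sites. Those letters alone say nothing of binding elsewhere, and the counts do not tell which start site was used.

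On GRCm38, with GENCODE M21 gene bounds, Axin2 (ENSMUSG00000000142) lies on chromosome 11 at 108920349 to 108950783. Chromosome 11 also carries Tcf7 (ENSMUSG00000000782) at 52252371 to 52283014, Rnf43 (ENSMUSG00000034177) at 87662722 to 87735539 and Znrf3 (ENSMUSG00000041961) at 5276324 to 5444847. Sp5 (ENSMUSG00000075304) lies on chromosome 2 at 70474923 to 70477729, Lef1 (ENSMUSG00000027985) on chromosome 3 at 131110471 to 131224356 and Cdx2 (ENSMUSG00000029646) on chromosome 5 at 147300805 to 147307270. Nkd1 (ENSMUSG00000031661) lies on chromosome 8 at 88521354 to 88594884, Tnfrsf19 (ENSMUSG00000060548) on chromosome 14 at 60963875 to 61046490 and Cdx1 (ENSMUSG00000024619) on chromosome 18 at 61018862 to 61036199. All 10 are protein-coding, and reads were counted over the whole gene, so isoforms are not separated. The library kit does not mark strand, and exons of 2 of the genes overlap another gene: 209 bases of Axin2 (3.80% of its exon length) overlap Gm11670, which had at most 5 reads in any library, and 1208 bases of Lef1 (13.7%) overlap Gm43352, which was not analysed here.

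The libraries held 15320599 to 23490527 counted reads. Levels are given as CPM (counts scaled per library to a common total), with library sizes scaled by TMM, and differences as log2 fold changes ± standard error (SE) with p-values from edgeR's quasi-likelihood test, adjusted by Benjamini-Hochberg over the 16575 genes tested. A gene was called when its adjusted p was below 0.05, and all 10 genes passed the filter on low counts. The pluripotency genes Pou5f1 and Sox2 summed to 603 to 817 CPM in EpiSC libraries and to 1322 to 2025 CPM in all others. Fgf5, Otx2, Pou3f1 and Dnmt3b, 4 markers of formative epiblast, summed to 135 to 139 CPM in EpiSC libraries. The same 4 genes summed to 159 to 176 CPM in A2 ground and 833 to 970 CPM in A2 EPL libraries. The naive markers Zfp42, Esrrb, Klf4, Tbx3 and Tfcp2l1 summed to 788 to 971 CPM in EpiSC libraries. Their sums were 4818 to 5191 CPM in A2 ground, 1653 to 1758 CPM in A2 EPL and 959 to 1088 CPM in D3 EPL libraries. EpiSC libraries also held 2245 to 2859 CPM of a list of 12 fibroblast and mesenchymal markers, against 8.10 to 25.4 CPM in the other 18 libraries, and 129 to 182 CPM of 7 primitive endoderm markers, against 3.56 to 37.5 CPM elsewhere. Their part in the EpiSC results below was not tested.

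**Figure D1:**
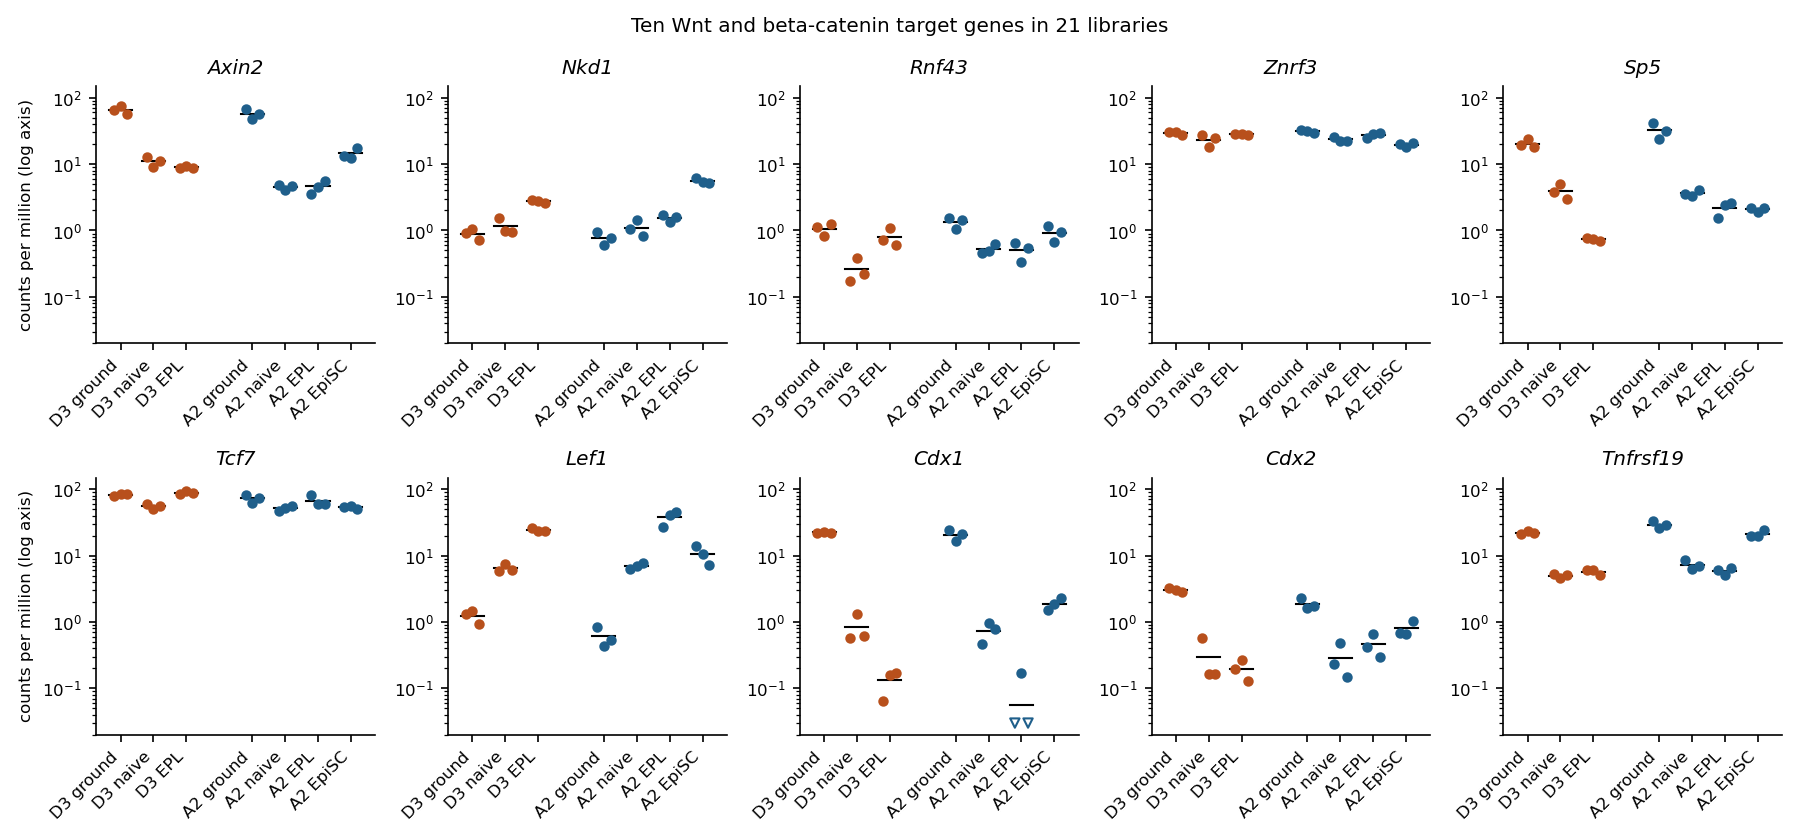
Level of each gene in all 21 libraries, in CPM on a log axis, with D3 groups in orange and A2 groups in blue. Each point is a library and each bar the mean of 3. Open triangles at the foot mark the 2 A2 EPL libraries without a Cdx1 read. Axin2, Sp5, Cdx1, Cdx2 and Tnfrsf19 have their highest group means in ground state cells, although for Tnfrsf19 the EpiSC and D3 ground libraries overlap. Lef1 is lowest in ground state cells and highest in EPL cells.

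Withdrawal of 2i for 4 days lowered 8 of the 10 genes and raised 1, Lef1. Of all genes tested, 63.5% were called in the comparison of naive with ground state cells, 31.7% higher and 31.8% lower. The 10 genes had a median log2 change of -1.87, against 0.01 for all genes. Cdx1, Axin2, Cdx2, Sp5 and Tnfrsf19 fell the most, and Znrf3 and Tcf7 fell the least.

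Among the feedback inhibitors, Axin2, the scaffold of the destruction complex most often used to read out β-catenin activity, had 12.7, 9.03 and 11.1 CPM in D3 naive libraries, against 65.2, 75.2 and 57.0 CPM in D3 ground libraries. In A2, naive libraries had 4.90, 4.02 and 4.73 CPM, against 66.7, 47.7 and 57.2 CPM in ground libraries. Every naive library was below every ground library in both lines, and Axin2 fell by 3.12 ± 0.11 on the log2 scale, averaged over the lines (adjusted p = 2.25e-16). In bulk RNA, fewer expressing cells and less RNA per cell cannot be told apart. Rnf43 and Znrf3 encode membrane ubiquitin ligases that remove Frizzled receptors from the cell surface. Rnf43 was low throughout, at 0.172 to 0.388 CPM in D3 naive and 0.461 to 0.634 CPM in A2 naive libraries, against 0.837 to 1.26 CPM in D3 ground and 1.05 to 1.56 CPM in A2 ground libraries, and fell by 1.67 ± 0.25 (adjusted p = 4.03e-06). Znrf3 averaged 23.1 ± 4.6 CPM in D3 naive and 23.6 ± 2.0 CPM in A2 naive cells, against 29.3 ± 1.9 CPM in D3 ground and 31.0 ± 1.2 CPM in A2 ground cells (SD, n = 3 each). The ranges did not overlap within either line, yet the drop was small, 0.37 ± 0.08 on the log2 scale (adjusted p = 0.000185). Nkd1, an inhibitor that binds Dishevelled, was the only one of the 10 not called: it had 0.942 to 1.54 CPM in D3 naive and 0.829 to 1.42 CPM in A2 naive libraries, against 0.712 to 1.07 CPM in D3 ground and 0.608 to 0.946 CPM in A2 ground libraries. Its log2 change of 0.42 ± 0.19 missed the threshold (adjusted p = 0.0545), and the ranges overlapped in both lines. Under RLE size factors, total-count scaling or a stricter filter its adjusted p was 0.0398, 0.0291 and 0.0483, and it was also below 0.05 without A2 ground replicate 1 (0.0284), A2 naive replicate 3 (0.0206), D3 ground replicate 2 (0.0316), D3 naive replicate 2 (0.0468) or D3 naive replicate 3 (0.0352).

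Of the transcription factor genes, Sp5, a zinc-finger factor of the Sp family, had 3.77, 5.04 and 2.99 CPM in D3 naive libraries, against 19.4, 23.6 and 17.8 CPM in D3 ground libraries. A2 naive libraries had 3.57, 3.28 and 4.09 CPM, against 42.1, 24.1 and 31.3 CPM in A2 ground libraries. The groups stood apart in both lines, and Sp5 fell by 2.76 ± 0.14 (adjusted p = 7.54e-14). Tcf7 and Lef1 both encode HMG-box partners of β-catenin, and they moved in opposite directions. Tcf7 averaged 55.1 ± 4.3 CPM in D3 naive and 51.7 ± 3.9 CPM in A2 naive cells, against 83.0 ± 4.1 CPM in D3 ground and 72.9 ± 9.8 CPM in A2 ground cells, and fell by 0.54 ± 0.08 (adjusted p = 2.14e-06). Lef1 had 5.83, 7.42 and 6.09 CPM in D3 naive libraries, against 1.32, 1.44 and 0.931 CPM in D3 ground libraries. In A2 it had 6.23, 6.91 and 7.80 CPM in naive libraries, against 0.851, 0.442 and 0.544 CPM in ground libraries. All naive libraries exceeded all ground libraries, and Lef1 rose by 2.92 ± 0.21 on the log2 scale, 7.59-fold (adjusted p = 5.54e-11).

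The caudal homeobox genes Cdx1 and Cdx2, which pattern the posterior embryo, fell to low counts. Cdx1 had 0.572, 1.33 and 0.609 CPM in D3 naive libraries, against 21.7, 23.01 and 22.1 CPM in D3 ground libraries. Its A2 values were 0.461, 0.980 and 0.780 CPM in naive libraries, against 24.5, 16.4 and 21.1 CPM in ground libraries. With a log2 change of -4.74 ± 0.18 (adjusted p = 5.98e-16), Cdx1 changed more than any other of the 10 genes in this comparison. Cdx2, which also specifies trophectoderm, had at most 0.572 CPM in naive libraries of either line, against 2.85 to 3.24 CPM in D3 ground and 1.60 to 2.32 CPM in A2 ground libraries, and fell to 0.125 times its ground state level (adjusted p = 1.49e-09). A list of 6 trophoblast markers summed to 30.8 to 32.7 CPM in D3 naive and 76.5 to 83.2 CPM in A2 naive libraries, against 35.8 to 39.4 CPM in D3 ground and 40.1 to 44.4 CPM in A2 ground libraries. Tfap2c, which mESCs also express, gave most of that sum, Elf5 averaged at most 0.173 CPM in any group, and of 5 markers tested 3 were higher and 1 lower in naive than in ground state cells. Their part in the level of Cdx2 was not tested. A list of 9 primitive streak markers summed to 6.04 to 8.03 CPM in D3 naive and 4.95 to 6.92 CPM in A2 naive libraries. In ground libraries it summed to 26.3 to 30.0 CPM in D3 and 27.7 to 35.8 CPM in A2. The list includes T (Brachyury), also a known target of the pathway. The part of these markers in the levels of Cdx1 and Cdx2 was not tested. Tnfrsf19 averaged 4.97 ± 0.28 CPM in D3 naive and 7.28 ± 1.2 CPM in A2 naive cells, against 22.0 ± 1.3 CPM in D3 ground and 29.3 ± 3.6 CPM in A2 ground cells. The ranges did not overlap, and Tnfrsf19 fell by 2.08 ± 0.09 (adjusted p = 7.92e-15).

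**Figure D2:**
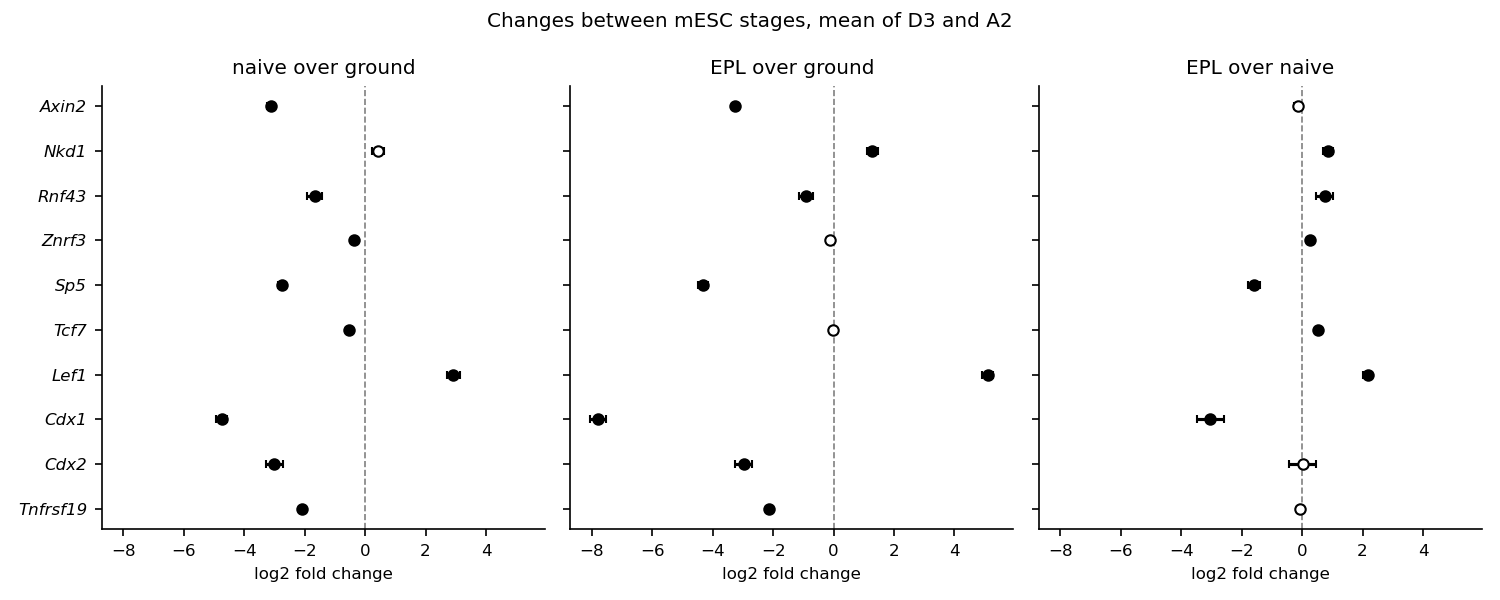
Log2 fold change of each gene between mESC stages, averaged over D3 and A2, with bars of 1 SE; filled points were called at an adjusted p below 0.05 and open points were not. Axin2, Sp5, Cdx1, Cdx2 and Tnfrsf19 lie far to the left in both comparisons with ground state cells, Lef1 lies far to the right in all 3, and in EPL over naive Sp5 and Cdx1 lie to the left of 0.

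In EPL cells, set against ground state cells, 6 of the 10 genes were lower and 2, Nkd1 and Lef1, were higher, while 66.3% of all genes tested were called (33.1% higher, 33.2% lower). The median log2 change of the 10 genes was -1.53, against 0.00 for all genes. Axin2 had 8.69, 9.37 and 8.61 CPM in D3 EPL and 3.60, 4.58 and 5.61 CPM in A2 EPL libraries, and it was lower than in ground state cells by 3.26 ± 0.11 (adjusted p = 8.26e-17). Lef1 had 25.8, 23.8 and 23.8 CPM in D3 EPL and 26.6, 40.5 and 45.7 CPM in A2 EPL libraries, above every library of every other group, and was 34.2-fold higher than in ground state cells (log2 change 5.10 ± 0.19, adjusted p = 2.46e-16). Sp5 had 0.778, 0.754 and 0.685 CPM in D3 EPL and 1.54, 2.40 and 2.60 CPM in A2 EPL libraries, and fell by 4.34 ± 0.17 (adjusted p = 3.76e-16). Nkd1, low in ground state cells, reached 2.61 to 2.85 CPM in D3 EPL and 1.34 to 1.71 CPM in A2 EPL libraries, a rise of 1.28 ± 0.17 (adjusted p = 9.43e-07). The ranges of EPL and ground state libraries did not overlap in either line for these 4 genes, nor for Cdx1, Cdx2 and Tnfrsf19. In D3 they overlapped for Rnf43, Znrf3 and Tcf7. The share of all genes whose ranges stood apart in this way was not counted.

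Cdx1 was all but lost from EPL cells. Its summed reads were 8 in 3 D3 EPL libraries, against 1327 in D3 ground libraries, or 0.626% of the ground state level after scaling (95% exact interval 0.270% to 1.24%, counting error only). In A2 the sums were 3 in EPL and 1204 in ground libraries, or 0.279% (0.0575% to 0.818%). All 3 of those A2 EPL reads were in replicate 2, and the other 2 libraries had none. The fitted log2 change was -7.79 ± 0.26 (adjusted p = 3.25e-17), and -9.46 without A2 EPL replicate 2, a value that is no bound since the A2 EPL group then has no read. Cdx2 fell by 2.98 ± 0.27 (adjusted p = 1.57e-09), to 0.197 ± 0.070 CPM in D3 EPL and 0.462 ± 0.19 CPM in A2 EPL cells. Tnfrsf19 fell by 2.14 ± 0.09 (adjusted p = 3.39e-15), to 5.73 ± 0.52 CPM in D3 EPL and 5.82 ± 0.71 CPM in A2 EPL cells. Rnf43 fell by 0.91 ± 0.23 (adjusted p = 0.00116), a call that held in A2 alone (-1.40, adjusted p = 0.000996) and not in D3 alone (-0.43, adjusted p = 0.247). Znrf3 and Tcf7 were not called, with log2 changes of -0.13 ± 0.08 and -0.01 ± 0.08 (adjusted p = 0.143 and 0.939).

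Between EPL and naive cells, which both lack 2i and differ in LIF and L-proline, the 10 genes split: 5 were higher, 2 lower and 3 not called, while 51.2% of all genes tested were called (27.1% higher, 24.1% lower). Lef1 rose by 2.17 ± 0.14 (adjusted p = 4.51e-11), Nkd1 by 0.86 ± 0.17 (adjusted p = 0.00019), Tcf7 by 0.54 ± 0.08 (adjusted p = 5.69e-06) and Znrf3 by 0.25 ± 0.08 (adjusted p = 0.0104). Sp5 fell by 1.58 ± 0.20 (adjusted p = 7.61e-07) and Cdx1 fell by 3.04 ± 0.45 (adjusted p = 7.55e-06). Without A2 EPL replicate 2 the fitted log2 change of Cdx1 was -4.72. Axin2, Cdx2 and Tnfrsf19, which had fallen between ground and naive cells, were not called, with log2 changes of -0.14 ± 0.13, 0.02 ± 0.44 and -0.06 ± 0.10. Rnf43 rose by 0.75 ± 0.28 (adjusted p = 0.0294), but the lines differed in direction: it averaged 0.797 ± 0.25 CPM in D3 EPL and 0.260 ± 0.11 CPM in D3 naive cells (log2 change 1.57), and 0.509 ± 0.16 CPM in A2 EPL and 0.528 ± 0.092 CPM in A2 naive cells (log2 change -0.07). The Rnf43 call was also lost in DESeq2 (adjusted p = 0.0575) and with no filter on low counts (adjusted p = 0.065). It was lost too without A2 naive replicate 1 or 2, A2 EPL replicate 1 or 3, D3 naive replicate 1 or 3, or D3 EPL replicate 2, with adjusted p of 0.0546 to 0.091 and log2 changes of 0.61 to 0.72. In A2 alone Nkd1 and Znrf3 were not called either, at 0.48 and 0.22 (adjusted p = 0.139 and 0.134).

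In A2 EpiSCs Nkd1 was higher than in any other group, and Axin2, Cdx1 and Tnfrsf19 were higher than in A2 naive and EPL cells. Axin2, Cdx1 and Tnfrsf19 were still below A2 ground state cells. Set against A2 ground state cells, EpiSCs had 2 of the 10 genes higher and 7 lower, with 73.2% of all genes tested called (39.1% higher, 34.1% lower). Set against A2 naive cells, 7 were higher and 2 lower, with 70.3% of all genes called (39.1% higher, 31.2% lower). Set against A2 EPL cells, 5 were higher and 3 lower, with 70.4% of all genes called (39.1% higher, 31.3% lower). The median log2 changes of the 10 genes in these comparisons were -0.61, 1.05 and 0.81, against 0.04, 0.08 and 0.07 for all genes. These values depend on scaling, because the TMM factors of EpiSC libraries were 1.14 and those of other libraries 0.933 to 1.01. With total-count scaling the medians of all genes were 0.30, 0.26 and 0.27, and the calls were 8280 higher and 3658 lower against ground, 7838 and 3854 against naive, and 7966 and 3638 against EPL, where TMM scaling gave 6488 and 5648, 6476 and 5179, and 6475 and 5192.

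Axin2 had 13.5, 12.6 and 17.3 CPM in the EpiSC libraries, above every A2 naive and EPL library and below every A2 ground library. Its log2 change was -1.99 ± 0.14 against ground (adjusted p = 3.84e-11), 1.67 ± 0.17 against naive (adjusted p = 1.64e-08) and 1.65 ± 0.18 against EPL cells (adjusted p = 2.53e-08). Nkd1 had 6.16, 5.32 and 5.13 CPM, above every library of the other 6 groups, and was 7.05-fold higher than in A2 ground, 5.01-fold higher than in naive and 3.58-fold higher than in EPL cells (adjusted p = 1.37e-10, 1.62e-09 and 4.06e-08). Cdx1 had 1.52, 1.84 and 2.29 CPM, with log2 changes of -3.45 ± 0.22 against ground, 1.32 ± 0.32 against naive and 4.87 ± 0.57 against EPL cells (adjusted p = 3.3e-12, 0.000944 and 1.01e-07). The last of these rests on 135 reads in EpiSC and 3 in A2 EPL libraries, a scaled ratio with an exact interval of 1087% to 15927%, and the fitted value was 8.21 without A2 EPL replicate 2. Tnfrsf19 had 19.4, 19.7 and 24.2 CPM, and changed by 1.54 ± 0.13 against naive, 1.86 ± 0.13 against EPL and -0.47 ± 0.11 against ground state cells (adjusted p = 3.72e-10, 3.21e-11 and 0.000826). With total-count scaling the change against ground was -0.21 and not called (adjusted p = 0.114).

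Sp5 did not share the higher level of Axin2: it had 2.16, 1.88 and 2.21 CPM in EpiSC libraries, overlapping the A2 EPL libraries and below all A2 naive libraries. It was lower than in ground state cells by 3.97 ± 0.21 (adjusted p = 1.2e-13) and than in naive cells by 0.81 ± 0.24 (adjusted p = 0.00457), and its change of -0.07 ± 0.26 against EPL cells was not called. Lef1 had 13.9, 10.5 and 7.13 CPM, 16.7-fold above A2 ground (adjusted p = 6.04e-11) and lower than A2 EPL cells by 1.84 ± 0.19 (adjusted p = 1.4e-08). In the same libraries the 12 fibroblast and mesenchymal markers summed to 2391, 2245 and 2859 CPM. Its rise of 0.58 ± 0.21 against naive cells (adjusted p = 0.0155) was lost without EpiSC replicate 1 (0.33, adjusted p = 0.166) or A2 naive replicate 1 (0.50, adjusted p = 0.063). Cdx2 averaged 0.799 ± 0.21 CPM, lower than in ground state cells by 1.24 ± 0.31 (adjusted p = 0.00113) and higher than in naive cells by 1.44 ± 0.43 (adjusted p = 0.00487), or by 2.08 without A2 naive replicate 2. Against EPL cells Cdx2 changed by 0.77 ± 0.40 and was not called (adjusted p = 0.0892), although it passed with total-count scaling (0.97, adjusted p = 0.0346) and without A2 EPL replicate 2 (1.14, adjusted p = 0.0414).

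Among the membrane ubiquitin ligase genes, Znrf3 had its lowest group mean in EpiSCs, with 19.8, 18.03 and 20.5 CPM, and fell by 0.67 ± 0.11 against ground and 0.49 ± 0.11 against EPL cells (adjusted p = 7.17e-06 and 0.00036). Its drop of 0.27 ± 0.11 against naive cells (adjusted p = 0.0283) was lost with total-count scaling (-0.09, adjusted p = 0.495) and without A2 naive replicate 1 (adjusted p = 0.119) or EpiSC replicate 2 (adjusted p = 0.102). Tcf7 had 54.6, 55.0 and 50.8 CPM, and changed by -0.45 ± 0.11 against ground, 0.05 ± 0.11 against naive and -0.33 ± 0.11 against EPL cells, the first and last called (adjusted p = 0.000857 and 0.0103). With total-count scaling neither Tcf7 call held (adjusted p = 0.126 and 0.311), and the second was lost without A2 EPL replicate 1, which stood at 82.8 CPM against 59.0 and 60.0 CPM in the other A2 EPL libraries (-0.16, adjusted p = 0.154). Rnf43 had 1.15, 0.665 and 0.959 CPM, and rose by 0.78 ± 0.33 against naive and 0.85 ± 0.34 against EPL cells (adjusted p = 0.0381 and 0.0303). Both Rnf43 calls were lost in DESeq2 (adjusted p = 0.0822 and 0.067) and without a filter on low counts. Against naive cells the call was also lost without A2 naive replicate 1 or 2 or EpiSC replicate 1 or 3 (adjusted p = 0.0809 to 0.153), and against EPL cells without A2 EPL replicate 2 or 3 or EpiSC replicate 1 or 3 (adjusted p = 0.0551 to 0.152). Against ground state cells Rnf43 changed by -0.55 ± 0.28 (adjusted p = 0.0824), and passed without A2 ground replicate 2 (-0.70, adjusted p = 0.048) or EpiSC replicate 1 (-0.75, adjusted p = 0.0423).

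**Figure D3:**
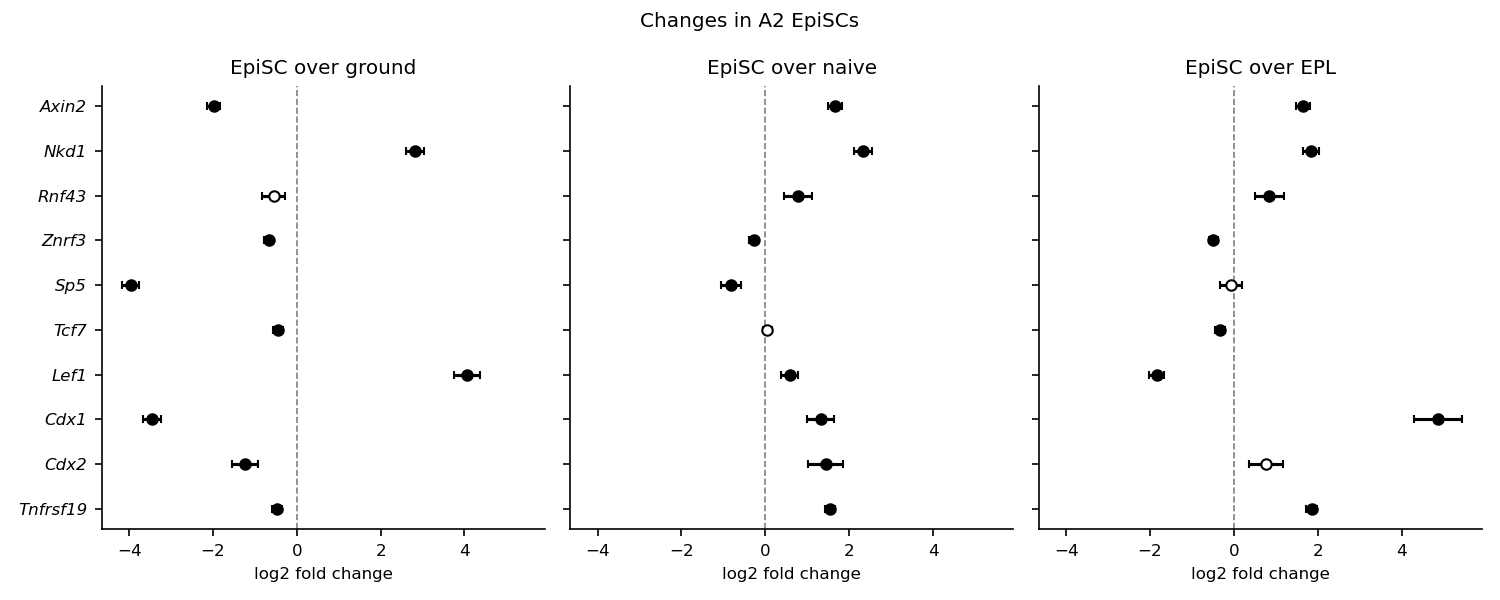
Log2 fold change of each gene in A2 EpiSCs over A2 ground, naive and EPL cells, with bars of 1 SE; filled points were called and open points were not. Nkd1 lies to the right in all 3 panels, and Axin2, Cdx1 and Tnfrsf19 lie to the left against ground and to the right against naive and EPL cells.

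In ground state cells 2 of the 10 genes were called between D3 and A2, both lower in D3, while 20.1% of all genes were called. Sp5 had 19.4, 23.6 and 17.8 CPM in D3 ground libraries, against 42.1, 24.1 and 31.3 CPM in A2 ground libraries (log2 change -0.68 ± 0.17, adjusted p = 0.00459). Tnfrsf19 had 21.0, 23.4 and 21.6 CPM in D3, against 32.9, 25.7 and 29.2 CPM in A2 (log2 change -0.41 ± 0.11, adjusted p = 0.0124). A2 ground replicate 1 was the highest of its group for all 10 genes, as it was for 32.2% of all genes tested, and replicate 2 the lowest for 9 of them, as it was for 36.6%, an order looked at after the values were seen. Without replicate 1 neither Sp5 (-0.44, adjusted p = 0.0797) nor Tnfrsf19 (-0.31, adjusted p = 0.106) was called, and Tnfrsf19 was also lost without D3 ground replicate 1 or 3 (adjusted p = 0.0643 and 0.0527). Lef1 was not called (0.99 ± 0.42, adjusted p = 0.111) but was in DESeq2 (adjusted p = 0.029) and without a filter on low counts (adjusted p = 0.00643).

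In naive cells 1 gene was higher and 1 lower in D3 than in A2, while 29.9% of all genes were called. Axin2, at 9.03 to 12.7 CPM in D3 naive and 4.02 to 4.90 CPM in A2 naive libraries, was 2.41-fold higher in D3 (log2 change 1.27 ± 0.18, adjusted p = 1.27e-05), and the ranges did not overlap. Tnfrsf19 was lower by 0.55 ± 0.14 (adjusted p = 0.0064), a call lost without A2 naive replicate 1 (-0.41, adjusted p = 0.0595). In EPL cells 3 genes were higher and 2 lower in D3, while 29.4% of all genes were called. Axin2 was 1.93-fold higher (log2 change 0.95 ± 0.19, adjusted p = 0.000461), Nkd1 1.77-fold higher (0.82 ± 0.22, adjusted p = 0.0061) and Sp5 lower, at 0.685 to 0.778 CPM in D3 EPL and 1.54 to 2.60 CPM in A2 EPL libraries (-1.56 ± 0.33, adjusted p = 0.00104). Tcf7 was higher in D3 EPL cells by 0.40 ± 0.11 (adjusted p = 0.00689) and Lef1 lower by 0.62 ± 0.18 (adjusted p = 0.0116). Both of these last calls were lost without A2 EPL replicate 2 (adjusted p = 0.0569 and 0.0523) or replicate 3 (adjusted p = 0.056 and 0.0957).

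Whether a change differed between the lines was tested directly, as the change in D3 minus the change in A2. For naive against ground cells 3.06% of all genes were called, and 1 of the 10: Axin2 fell by 2.59 ± 0.15 in D3 and by 3.66 ± 0.17 in A2, a difference of 1.07 ± 0.23 (adjusted p = 0.00829). For EPL against ground cells 13.3% of all genes were called, and 3 of the 10. Axin2 fell by 2.89 ± 0.15 in D3 and fell by 3.64 ± 0.17 in A2 (difference 0.75 ± 0.23, adjusted p = 0.0329). Lef1 rose by 4.29 ± 0.25 in D3 and 5.90 ± 0.28 in A2 (difference -1.61 ± 0.46, adjusted p = 0.0214). Cdx2 fell by 3.94 ± 0.39 in D3 and fell by 2.01 ± 0.36 in A2 (difference -1.93 ± 0.60, adjusted p = 0.0362). These 3 differences were called at adjusted p between 0.0214 and 0.0362. That of Axin2 was lost without A2 ground replicate 1 or 3, A2 EPL replicate 1 or 2, D3 ground replicate 1 or 3, or D3 EPL replicate 2 or 3 (0.60 to 0.76, adjusted p = 0.0552 to 0.103). That of Lef1 was lost without A2 ground replicate 2 or 3 or D3 ground replicate 1 or 2 (-1.58 to -1.43, adjusted p = 0.0527 to 0.0737). That of Cdx2 was lost without A2 ground replicate 2 or 3, A2 EPL replicate 2, D3 ground replicate 1 or 2, or D3 EPL replicate 1 or 3 (-1.95 to -1.56, adjusted p = 0.0549 to 0.177). For EPL against naive cells 12.7% of all genes were called, and 1 of the 10: Sp5 fell by 2.41 ± 0.30 in D3 and fell by 0.74 ± 0.25 in A2, a difference of -1.67 ± 0.41 (adjusted p = 0.00842). Rnf43 rose by 1.57 ± 0.40 in D3 and changed by -0.07 ± 0.38 in A2, a difference of 1.64 ± 0.56 that missed the threshold (adjusted p = 0.0571) and passed it with total-count scaling (adjusted p = 0.0461) and without A2 EPL replicate 1 (0.0451), D3 naive replicate 2 (0.0397) or D3 EPL replicate 3 (0.0438). Single libraries also decided other differences that were not called: without A2 EPL replicate 1 that of Tcf7 was called for EPL against ground (0.40, adjusted p = 0.0391) and EPL against naive (0.48, adjusted p = 0.0151). That of Sp5 was called for EPL against ground without A2 ground replicate 1 (-1.13, adjusted p = 0.0318) and for naive against ground without A2 ground replicate 2 (0.98, adjusted p = 0.0491).

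**Figure D4:**
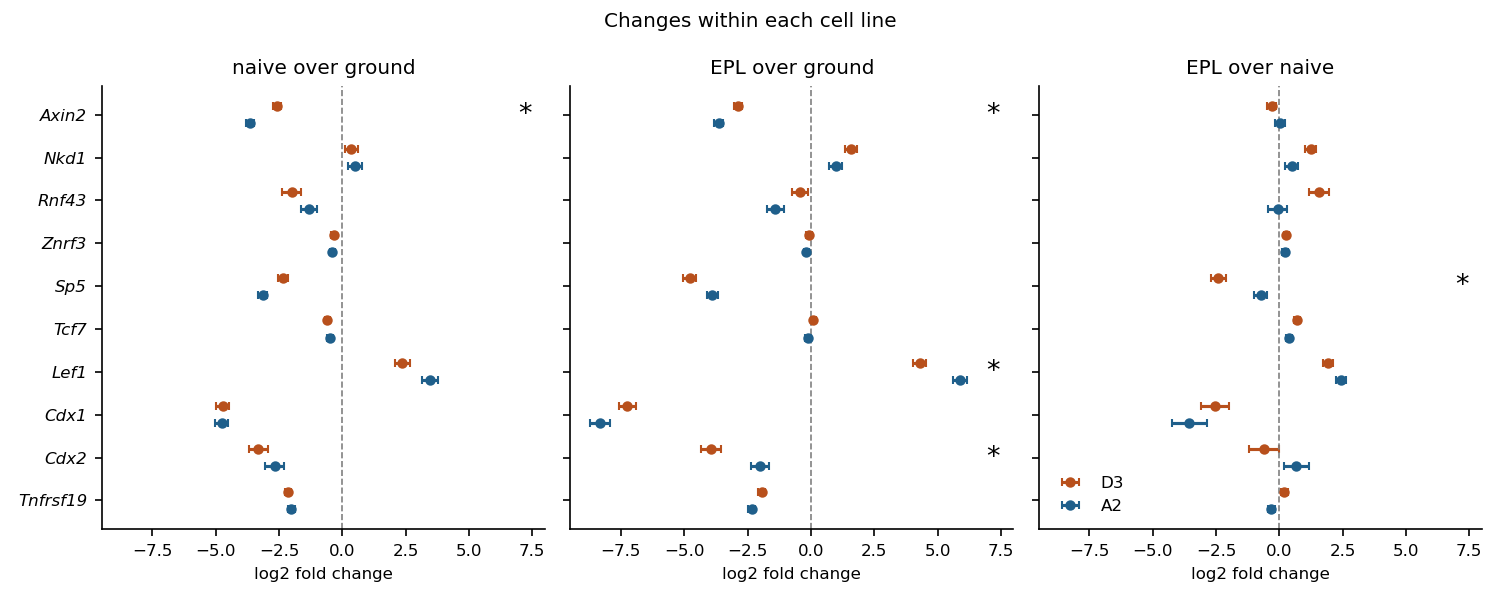
Log2 fold changes of each gene within D3 (orange) and within A2 (blue), with bars of 1 SE; an asterisk marks a called difference between the lines. Asterisks stand at Axin2 for naive over ground, at Axin2, Lef1 and Cdx2 for EPL over ground, and at Sp5 for EPL over naive.

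Ordered by group mean, Axin2 was highest in D3 ground (65.8 CPM) and A2 ground cells (57.2 CPM), whose ranges overlapped, then in EpiSC (14.4 CPM), D3 naive (11.0 CPM) and D3 EPL cells (8.89 CPM), each overlapping the next, and lowest in A2 EPL (4.60 CPM) and A2 naive cells (4.55 CPM), which also overlapped. Lef1 was lowest in the ground state groups, where Axin2 was highest, but EpiSC held rank 3 for both genes. The Lef1 order was A2 EPL (37.6 CPM), D3 EPL (24.4 CPM), EpiSC (10.5 CPM), A2 naive (6.98 CPM), D3 naive (6.45 CPM), D3 ground (1.23 CPM) and A2 ground (0.612 CPM). Among its neighbours, EpiSC and A2 naive, and A2 and D3 naive, overlapped. The order for Sp5 was A2 ground (32.5 CPM), D3 ground (20.25 CPM), D3 naive (3.94 CPM), A2 naive (3.65 CPM), A2 EPL (2.18 CPM), EpiSC (2.08 CPM) and D3 EPL (0.739 CPM), in which neighbours overlapped only between the naive groups and between A2 EPL and EpiSC. For Tcf7, Znrf3 and Rnf43 every neighbouring pair of groups in the order overlapped.

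Tcf7 and Lef1 can be set beside the other TCF/LEF family genes per kilobase of exon. The most abundant was Tcf7l1, at 50.8% to 58.3% of the family's summed level in every group, followed by Tcf7 at 37.2% to 44.9%. Lef1 made up 0.185% of the family in D3 ground, 1.48% in D3 naive and 3.69% in D3 EPL cells, and 0.0976% in A2 ground, 1.71% in A2 naive, 6.32% in A2 EPL and 2.44% in A2 EpiSC cells. In A2 EPL cells Lef1 had 4.28 ± 1.1 CPM per kb, against 25.6 ± 5.1 for Tcf7 and 37.7 ± 1.3 for Tcf7l1 (SD, n = 3). Lef1, which rose more than any other of the 10 genes in EPL against ground cells, was still a small share of the family RNA on this scale. The lengths used, of all annotated exons joined, were 8788 bases for Lef1 and 2625 for Tcf7. The shares therefore depend on which isoforms were made, which is not known here. Before division by length, A2 EPL cells averaged 37.6 CPM of Lef1 and 67.3 CPM of Tcf7. Tcf7l1 fell by 0.69 ± 0.05 in naive against ground cells (adjusted p = 6.6e-11) and rose by 0.55 ± 0.05 in EPL against naive cells (adjusted p = 1.07e-08), in the same directions as Tcf7.

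**Figure D5:**
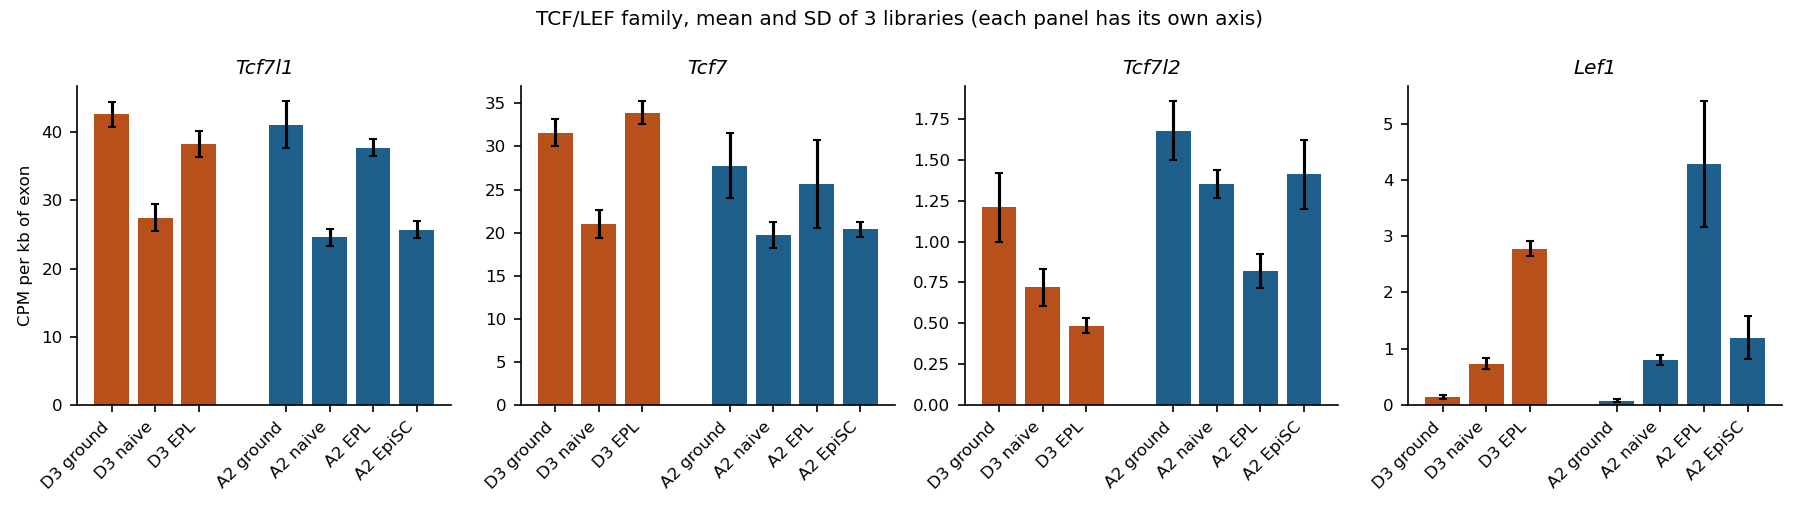
Mean level of the 4 TCF/LEF family genes in each group, in CPM per kilobase of exon, with bars of 1 SD over 3 libraries and a separate axis for each gene. Tcf7l1 and Tcf7 are lower in naive than in ground or EPL cells, and Lef1 reaches 4.28 CPM per kb in A2 EPL cells.

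The counts for the wider pathway lists stand beside the shares of all genes called, which were 63.5% in naive, 66.3% in EPL and 73.2% in EpiSC cells, each against ground. Of 13 other known targets of the pathway 12 were tested. In naive against ground cells 5 were higher and 4 lower, with a median log2 change of 0.32, while 31.7% of all genes were higher and 31.8% lower. Apcdd1, an inhibitor of Wnt signalling at the membrane, fell by 2.77 ± 0.08, to 6.79 CPM in D3 naive and 7.76 CPM in A2 naive, against 43.2 CPM in D3 ground and 56.5 CPM in A2 ground cells. Myc and Id2, growth and differentiation regulators that answer to many pathways, rose by 2.50 ± 0.07 and 2.34 ± 0.08. The R-spondin receptor gene Lgr5 was called higher too, but averaged only 0.129 CPM in D3 naive and 0.188 CPM in A2 naive cells, against 0.0634 CPM in D3 ground cells and no read in A2 ground cells. In EPL against ground cells 7 were higher and 4 lower, with Apcdd1 lower by 3.86, Nkd2, a relative of Nkd1, higher by 3.06, and T (Brachyury), a mesoderm regulator, lower by 2.87. In EpiSCs against A2 ground cells 8 were higher and 3 lower, and Cd44 and Sp8 rose by 6.85 and 5.45. Of the 13 targets, 12 averaged at least 1 CPM in EpiSCs and 7 in A2 ground cells. Some could thus pass the filter on low counts through EpiSCs alone. Cd44, an adhesion receptor also made by mesenchymal cells, averaged 47.0 CPM in EpiSCs, beside the fibroblast markers given above, and at most 1.41 CPM elsewhere.

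Of 4 genes that Tcf7l1 is known to repress in mESCs, 3 fell in naive against ground cells and all 4 in EPL against ground and in EpiSC against ground cells. Tfcp2l1, a naive pluripotency factor, fell by 2.03, 3.25 and 4.26, and Nanog by 0.97, 1.86 and 1.62; Klf2 was not called between naive and ground cells (-0.09). Of 6 genes that respond to ERK, which lies downstream of MEK, 5 rose in naive against ground cells, Egr1 by 6.36 and Spry4 by 2.97. In EPL against ground cells 5 rose and 1 fell. The summed level of the 6 genes was 534 to 574 CPM in EpiSC libraries, against 836 to 937 CPM in A2 ground libraries. A2 naive libraries had 1311 to 1357 CPM and A2 EPL libraries 1269 to 1321 CPM. Such a sum is weighted to the most abundant genes and does not give the direction of each.

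Of 19 Wnt ligand genes 13 were tested, and 8 rose and 2 fell in naive against ground cells. Wnt5a rose by 4.81, to 2.46 CPM in D3 naive and 3.22 CPM in A2 naive cells, against 0.0479 CPM in D3 ground and 0.170 CPM in A2 ground cells. Wnt5b fell by 3.05, to 0.730 CPM in D3 naive and 0.441 CPM in A2 naive cells, against 5.33 CPM in D3 ground and 4.28 CPM in A2 ground cells. Wnt10a and Wnt3 rose by 2.18 and 2.05 at levels of 0.645 to 1.30 CPM in naive cells. In EPL against ground cells 5 ligand genes rose and 3 fell, and in EpiSCs against A2 ground cells 10 rose and 2 fell. All 13 were higher in EpiSC than in A2 EPL cells, a comparison in which 39.1% of all genes tested were higher and 31.3% lower. Of the 19, 12 averaged at least 1 CPM in EpiSCs, against 3 to 5 in each other group. Ligand genes could thus pass the filter on low counts through EpiSCs alone. The counts of ligand genes higher in EpiSCs are therefore not a test of the list. The ligand genes summed to 93.8 to 162 CPM in EpiSC libraries, against 11.7 to 28.9 CPM in all others. Wnt8a reached 33.8 CPM in EpiSCs and Wnt4 8.20 CPM, and Wls, the carrier that brings ligands to the surface, averaged 123 CPM in EpiSCs and 3.03 CPM in A2 ground cells (log2 change 5.33). The part of the fibroblast markers in these ligand levels was not tested.

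Of 15 receptor genes tested, 6 rose and 6 fell in naive against ground cells, where 31.7% of all genes rose and 31.8% fell. In EPL against ground cells 7 rose and 5 fell, beside 33.1% and 33.2% of all genes. In EpiSCs against A2 ground cells 8 rose and 4 fell, beside 39.1% and 34.1% of all genes. Fzd10, a Frizzled receptor gene, fell by 1.78 in naive and by 2.70 in EPL against ground cells, to 13.4 CPM in D3 EPL and 14.1 CPM in A2 EPL, against 82.0 CPM in D3 ground and 97.3 CPM in A2 ground cells. Ror2, a coreceptor of the β-catenin-independent branch, fell by 1.82 in both comparisons, while its relative Ror1 rose by 2.67 and 4.43. Of 7 R-spondin and Lgr genes, which boost Wnt signals by holding back Rnf43 and Znrf3, 5 rose and 1 fell in naive and in EPL against ground cells. Most were low: only 1 of the 7 averaged at least 1 CPM in each ground group, and 3 did in each naive and EPL group. Lgr5, given above among the other targets, is in this list too. Of 15 secreted inhibitors and their coreceptors 12 were tested. Against ground cells 2 rose and 5 fell in naive, 5 rose and 4 fell in EPL, and 7 rose and 3 fell in EpiSC. Of the 15, 12 averaged at least 1 CPM in EpiSCs and 6 in A2 ground cells, so some could pass the filter through EpiSCs alone. Sfrp1, a decoy for Wnt ligands and the most abundant of these genes, fell by 1.69 in naive and 2.43 in EPL cells, to 51.9 CPM in D3 EPL and 62.9 CPM in A2 EPL, against 289 CPM in D3 ground and 327 CPM in A2 ground cells. Of 14 genes of the destruction complex and its regulators 1 rose and 6 fell in naive against ground cells and 4 rose and 7 fell in EPL against ground cells, with Gsk3b lower by 0.75 and 0.81. Of 10 nuclear cofactors 2 rose and 6 fell in naive against ground cells, and 3 rose and 6 fell in EPL against ground cells.

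Among 12037 genes with at least 5 CPM in their highest group, the 5 whose log2 CPM was most like that of Axin2 over the 21 libraries were Csrnp2 (Pearson r = 0.976), Snx18 (0.975), Ctnnd2 (0.974), Dclk2 (0.973) and Sptlc2 (0.971). The libraries form 7 groups, so these values mostly describe the order of group means. Ctnnd2, which encodes δ-catenin, stood at 2.92 CPM in D3 naive and 2.13 CPM in A2 naive, against 18.8 CPM in D3 ground and 14.9 CPM in A2 ground cells. Sptlc2, an enzyme of sphingolipid synthesis, stood at 78.7 CPM in D3 naive and 64.7 CPM in A2 naive, against 103 CPM in D3 ground and 97.9 CPM in A2 ground cells.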

How the data were processed

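The authors deposited read counts per gene for 21 libraries, made with HISAT2, SAMtools and featureCounts on GRCm38, per the submitters' processing notes. Their versions were not given in those notes. Total RNA was prepared with a kit that does not mark strand, per the labels' protocols. All 39396 gene identifiers matched GENCODE M21, and 11356 genes had no count. Groups came from the labels, and no column was left unused. A filter (edgeR filterByExpr, minimum count 10, minimum total 15) kept 16575 genes, which held at least 99.9% of each library's counts. edgeR 4.0.16 in R 4.3.3 fitted TMM-scaled counts with quasi-likelihood and 1 mean per group over all 21 libraries, so all comparisons share 1 estimate of spread; mESC stage comparisons average D3 and A2 equally. SE is the log2 change over the root of the F statistic. p-values were adjusted by Benjamini-Hochberg over all tested genes and called below 0.05. The code was tested on simulated data. Count ratios carry 95% exact intervals, for counting error only. Comparisons that use the same libraries are not independent.

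The 10 genes are named in every comparison. From each pathway list, at most 4 called genes with the largest change and at least 1 CPM in their highest group were eligible to be named, and other genes named were chosen after their values were seen. The members and lists were chosen with earlier results of these data known. Alternatives were RLE and total-count scaling, filters, DESeq2 1.42.0, a replicate block, fits on fewer groups, each line alone and leaving out each library. Tables and plots used Python 3.11.15, pandas 2.3.3, numpy 2.4.6, scipy 1.17.1 and matplotlib 3.10.9.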

Additional observations from a re-analysis of the deposited data

Results flagged for a closer look

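These 5 results were picked out because a test of the difference itself found that D3 and A2 differed in the same change of stage. Each value is the log2 change in D3 minus that in A2, with its SE and edgeR's adjusted p. For Axin2 the difference was 1.07 ± 0.23 in naive against ground cells (adjusted p = 0.00829) and 0.75 ± 0.23 in EPL against ground cells (adjusted p = 0.0329). For EPL against ground cells it was -1.61 ± 0.46 for Lef1 (adjusted p = 0.0214) and -1.93 ± 0.60 for Cdx2 (adjusted p = 0.0362). For Sp5 in EPL against naive cells it was -1.67 ± 0.41 (adjusted p = 0.00842). Of the 5, those of Axin2, Lef1 and Cdx2 in EPL against ground cells were lost on leaving out single libraries. The cause of these differences was not tested.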

How the results depend on the processing

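Among values of the 10 genes under alternatives, 1890 kept their side of the threshold, 64 lost the call, 25 gained it, and 1 that was called turned round: Rnf43 in EPL against naive cells was -0.068 in A2 alone. Values that were not called could change sign, as Cdx2 did in EPL against naive cells (-0.62 to 0.67). A2 alone also gave 4 of the 10 genes called there, in place of 7, and 5440 of all genes in place of 8489. With total-count scaling 2 genes differed between lines in EPL against naive, in place of 1. Without a filter on low counts 3 genes and 846 of all genes differed between lines in naive against ground, in place of 1 and 508. Leaving out each library in turn, between 0 and 2 of the 10 genes were called for D3 against A2 when both were ground state, between 1 and 2 when both were naive, and between 3 and 5 when both were EPL cells. Those with a line difference numbered 1 to 2 in naive against ground, 0 to 3 in EPL against ground and 1 to 3 in EPL against naive, and of all genes 310 to 515 in naive against ground. In edgeR the count of 0 between lines in ground cells, without A2 ground replicate 1, stood beside 6 genes at an unadjusted p below 0.05, and the counts of 0 in line differences, without A2 ground replicate 3 or D3 ground replicate 1, beside 4. DESeq2, run on all libraries, called 3 and 3 genes in these comparisons.

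Replicate numbers did not pair the samples: over 27 pairs of same-numbered libraries the correlation of deviations ran from -0.159 to 0.210, with 3 above 0.1. With the replicate number as a block, calls between D3 and A2 were 1811 in ground, 2661 in naive and 2759 in EPL cells, in place of 3325, 4959 and 4880. Among the 10 genes, 3 were then called in EPL cells in place of 5, without Tcf7 (adjusted p = 0.155) and Lef1 (0.177), and the line difference of Cdx2 in EPL against ground cells was not called (-1.91, adjusted p = 0.0634). The cause of these changes was not tested. Depth limits Cdx1 in EPL cells, at 3 and 8 reads a group, and Rnf43, Cdx2 and Nkd1, mostly below 3 CPM.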
